A study of Mus musculus with 4 samples.

Results

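The comparison set the array of SVEC4-10 cells carrying a short hairpin RNA against Mical3 beside both control arrays of the series, an insert-free vector array and an untreated array. Members were the genes whose level on the array labelled Mical3 lay at least 1 log2 unit (2-fold) above both controls, or at least 1 below both. The higher level of each pair compared also had to reach a floor of 5.41, which is the median over all values of the table. Of 18193 genes measured, 12011 reached the floor on some array of the comparison, and 457 of these were called. There were 166 called higher (1.38% of the genes tested) and 291 called lower (2.42%), together 3.8%. All values are log2 expression levels or log2 differences, and every list percentage below is to be read against these shares.

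SVEC4-10 is an endothelial line obtained by SV40 transformation of mouse lymph node vessel cells. The untreated group received no vector. The vector group was transduced with the pLENTI6/Block-iT lentiviral backbone without an insert, and the Mical3 group with the same backbone expressing an anti-Mical3 hairpin. A further array held cells with an anti-Mical2 hairpin and is set beside the others for named genes, since the series asked which transcripts change without MICAL2 and carried Mical3, a related gene, in the same backbone. Blasticidin selection was applied to transduced cells. RNA of 3 biological replicates was combined before hybridisation, giving 1 array a group and 4 in all. The spread between replicates is therefore unknown, precision is limited by the number of arrays, and the text holds neither tests nor p-values. In a pool from bulk culture, fewer cells of a kind and less RNA per cell cannot be told apart.

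MICAL proteins are flavoprotein oxidases that oxidise methionine residues of actin and thereby take filaments apart. MICAL3 carries the same kind of enzyme domain and is known for work in vesicle docking and in cell division. Actin filament turnover is linked to transcription because free actin holds back the MRTF cofactors of SRF, a factor that drives contractile and adhesion genes.

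The hairpin itself is shown first because it is the only sequence by which the Mical3 and vector groups differ in design. The insert has 66 bases, with a stem of 23 bases on each side of a 9-base loop, which is in capitals in the first line. In the second line the antisense strand of the stem, the strand meant to pair with the target, is shown with its seed, bases 2 to 8 counted from its 5′ end, in capitals.
Mical3 hairpin insert: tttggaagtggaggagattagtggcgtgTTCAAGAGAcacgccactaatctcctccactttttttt
Mical3 hairpin antisense strand: cACGCCACtaatctcctccactt

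The stem had a GC content of 52.2%. Its seed was shared by 0 of the 1679 mature mouse miRNAs in the RefSeq miRNA table. Places in transcripts that pair with the stem or the seed were not analysed here.

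The targeted transcript was close to level between the array labelled Mical3 and both controls. Mical3 read 7.24 on the array labelled Mical3, 7.29 with the empty vector and 7.39 in untreated cells, and its lowest level, 6.83, was on the Mical2 hairpin array. The difference of the hairpin array from either control was far under 2-fold. Mical1, the first described member of the family, lay below both controls and was not called, at 6.82 against 8.0 with the empty vector and 7.59 in untreated cells. Mical2 read 6.08 against 5.14 and 5.60. Every direction below is therefore a difference between the array labelled Mical3 and the control arrays, whatever the level of the target was.

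The RNA also carried few transcripts that define endothelial cells. Only 12 of 34 endothelial identity genes reached the floor on any array of the comparison. Pecam1 read 3.51, 3.88 and 3.46 on the array labelled Mical3, the vector array and the untreated array, and Cdh5, the vascular cadherin, 4.32, 3.95 and 4.50 in that order. Tek, Tie1, Emcn, Vwf, Erg, Cldn5 and Sox18 were below the floor on all 4 arrays, as were the lymphatic markers Prox1 and Lyve1. The endothelial protein C receptor Procr (11.35, 10.97 and 10.65), endoglin Eng (7.58, 7.54 and 7.31) and the lymphatic glycoprotein podoplanin Pdpn (12.47, 12.50 and 12.29) were present at similar levels throughout. The label endothelial thus rests on a small part of the defining markers in these arrays.

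The controls differed from each other for many called genes. In the 166 genes called higher, the vector array was below the untreated array in 141, and the median difference of the Mical3 array was 1.83 from vector but 1.33 from untreated. In the 291 called lower, the medians were −1.91 and −1.55, and the vector array was below the untreated array in 94. The gap between the controls had a median of 0.53 in the genes called higher, 0.41 in those called lower and 0.24 over all genes tested. The difference from the nearer control exceeded that gap in 148 of 166 and 265 of 291 genes. The rule asks for a difference of at least 1, so this was fixed in advance wherever the gap was smaller than 1. A gap of at least 1 was seen in 40 of the genes called higher and 68 of those called lower. For comparison, the vector array was at least 2-fold higher than the untreated array in 3.26% of genes and lower in 2.57%, a comparison of a single pair and so a looser rule. Of the genes called higher, 118 of 166 were also at least 2-fold above the Mical2 hairpin array, and the other 48 were within 1 of it. Of those called lower, 188 of 291 were at least 2-fold below it and 98 within 1. Another 5 called lower were at least 2-fold lower still on the Mical2 array. Over all genes tested, 0.982% were called higher than all 3 other arrays and 1.57% lower. The called genes were chosen by their level on the array labelled Mical3. The share of all genes that differed 2-fold from the Mical2 array alone is not given here.

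**Figure D1:**
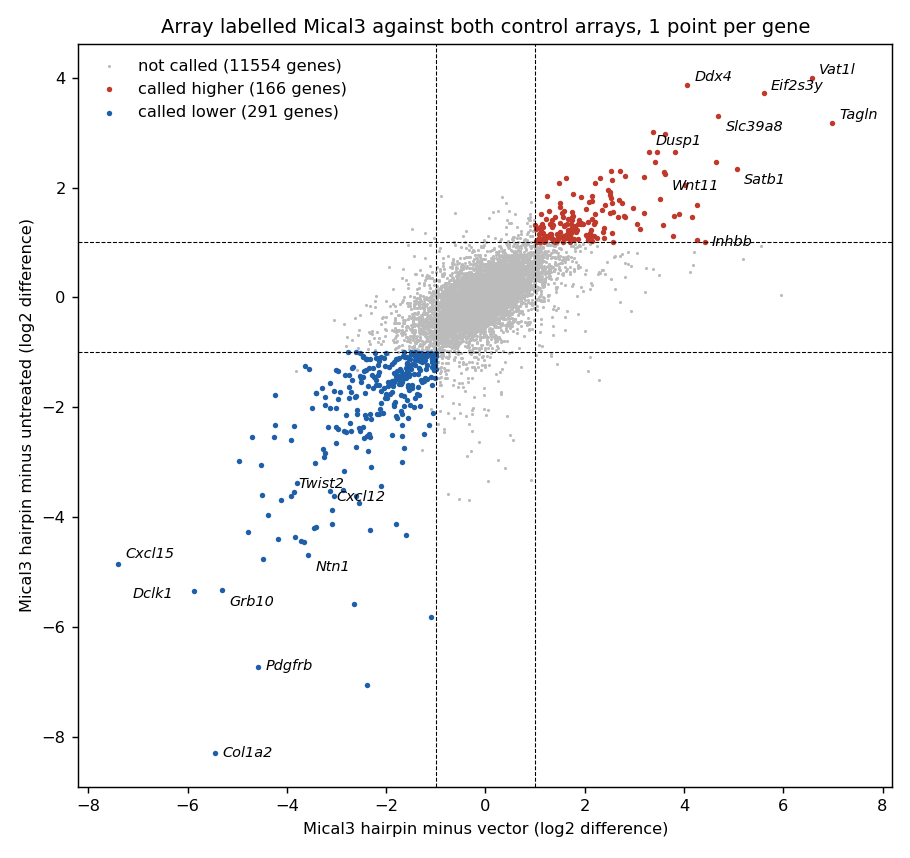
Each point is 1 of 12011 genes, placed by its log2 difference from vector (horizontal) and from untreated (vertical), with dashed lines at a difference of 1 in each direction. The 166 genes called higher (red) reach 4.0 from the nearer control and the 291 called lower (blue) reach −5.45, and more genes fill the lower left corner than the upper right.

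Among the genes called higher, the group with the largest share was the feedback arm of the ERK pathway, the kinase cascade through which growth factor receptors act. Of 26 measured members 10 were called higher and 0 lower, which is 38.5% against 1.38% over all genes. Its median differences were 0.99 from vector and 0.79 from untreated cells, against −0.03 and 0.01 over all genes tested, and 22 of 26 members lay above both controls by any size, against 35.3% of all genes. Across the processing alternatives between 4 members, at a fold of 3, and 15, at a fold of 1.5, were called higher and at most 1 lower.

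The phosphatases that switch off MAP kinases led the list. Dusp1 read 12.21 on the array labelled Mical3, 10.32 on the Mical2 hairpin array, 9.57 in untreated cells and 8.92 with the empty vector, 9.78-fold above vector and 6.23-fold above untreated. It stood apart from all 3 other arrays. Dusp4 read 11.14 against 9.66, 8.96 and 9.52 on the Mical2, untreated and vector arrays. Dusp6, which acts on ERK itself, read 11.60 against 10.78, 10.26 and 9.64, and Dusp5, a nuclear ERK phosphatase, 9.76 against 8.43, 8.59 and 7.65. In each of these the array labelled Mical3 was the highest of 4 and the vector array the lowest, except that Dusp4 was lowest in untreated cells. Other members of the family were not called. Dusp14 lay above both controls, at 10.41 against 9.59 in untreated cells and 8.29 with the empty vector. Dusp10 read 7.26 against 7.86, 7.20 and 7.48 on the Mical2, untreated and vector arrays, and Dusp2 and Dusp7 differed by less than 1 from both controls.

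The ETS factors Etv4 and Etv5, which are transcribed in response to ERK, and the Sprouty inhibitors of receptor signalling lay the same way. Etv5 read 7.75 on the array labelled Mical3, 5.98 on the untreated array, 5.32 on the Mical2 hairpin array and 5.05 on the vector array. Etv4 read 7.80 against 6.05, 6.27 and 5.66. Both genes were within 1 of the floor on every array but the one labelled Mical3. Spry2 read 9.47 against 8.24 on both the untreated and the Mical2 arrays and 7.35 on the vector array, and Spry3 6.74 against 5.53, 5.54 and 5.0. A second Spry2 probe set at the floor did not differ (5.81, 5.88 and 5.65 on the Mical3, untreated and vector arrays), and with the mean of all probe sets Spry2 and Etv5 lost their call.

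Ier3, an early response gene and ERK target, read 13.10 against 11.98 on the Mical2 array, 11.76 in untreated cells and 10.92 with the empty vector. Hbegf, a ligand of the EGF receptor, read 9.34 against 8.16 and 7.67 on the controls, but 9.19 on the Mical2 array, so it did not set the array labelled Mical3 apart from the other hairpin. The early response factor Egr1 lay on the other side, at 9.89 against 10.64 with the empty vector and 10.97 in untreated cells, and was not called. Of the 28 immediate early and AP-1 genes at the floor only Fos, Klf6 and Ier3 were called, with medians of −0.05 and 0.22. Fos read 10.01 against 8.71 and 8.67, and 10.40 on the Mical2 array.

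Contractile targets of SRF and MRTF were a further group. Of 30 members at the floor 5 were called higher (16.7%) and 1 lower, with medians of 0.90 from vector and 0.25 from untreated. Tagln, the actin-binding protein transgelin, read 13.45 on the array labelled Mical3, 11.16 on the Mical2 hairpin array, 10.27 in untreated cells and 6.47 with the empty vector. That is 126-fold above vector and 9.06-fold above untreated, a span set largely by the low vector level. Actg2, the smooth muscle gamma actin, read 7.07 against 5.82 on the untreated array and 3.96 on the vector array. Fhl1, a LIM protein of muscle, read 12.62 against 10.94 and 10.21, and Acta1, the skeletal alpha actin, 7.93 against 6.81 and 6.23. Acta1 read 7.27 on the Mical2 array, within 1 of the array labelled Mical3. The vector array was the lowest of 4 in all 5 called members. Against vector alone 13 members were higher and against untreated alone 5, and with the mean of all probe sets 3, Fhl1 and Zyx being lost.

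Other members of the list split the controls. Acta2, smooth muscle alpha actin, read 14.49 on the array labelled Mical3, 13.67 on the untreated array and 11.61 on the vector array. Ccn2, a secreted matricellular protein, read 13.59, 12.78 and 10.54 in the same order. Both were within 1 of the untreated array and were not called. Csrp2, a LIM protein, was the member called lower, at 8.28 against 10.25 and 9.60. Markers of smooth muscle cells were measured beside these: Myh11, Cnn1 and Myocd were below the floor on all 4 arrays, while 8 of 13 markers reached it, and the summed linear level of the list was 35273 on the array labelled Mical3, 15417 on the untreated array, 4219 on the vector array and 18092 on the Mical2 array. Tagln, Actg2 and Acta2 belong to that list too, and what part other cell types had in the result was not tested.

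Adhesion and YAP genes had smaller shares. Zyx, the focal adhesion protein zyxin, read 11.10 against 10.02 on the untreated array and 8.86 on the vector array, and its other probe set lay 1.44 and 0.71 above vector and untreated. Itga6, the laminin-binding integrin alpha 6, read 10.20 against 8.74 and 8.63. The receptor of hyaluronan Cd44 read 12.14 against 10.98 and 11.06. Caveolin 1, Cav1, read 13.13 against 12.02 and 11.67. On the Mical2 array Cd44 read 11.58 and Cav1 12.36, both within 1 of the array labelled Mical3, while Zyx read 9.90 and Itga6 9.12. Zyx, Itga6, Cd44 and Cav1 were the 4 of 28 focal adhesion and integrin genes called higher (14.3%). The beta integrins Itgb5 (8.90 against 10.47 and 10.64) and Itgb8 (3.15 against 7.03 and 6.25) were called lower. On the Mical2 array Itgb5 read 10.36 and Itgb8 4.53, so Itgb8 was below the floor on both hairpin arrays. With the mean of all probe sets, and with chromosome medians subtracted, 2 focal adhesion genes were called higher. The core proteins Tln1, Pxn, Src, Parva and Itga5 differed by less than 1 from both controls, Pxn and Itga5 lying below both. Other members lay above both controls without a call. Among them were Fermt2 (12.10 against 11.39 and 10.67), Vcl (13.39 against 12.76 and 12.27), Bcar1 (11.43 against 10.84 and 10.75) and Itga3 (9.67 against 8.81 and 8.58).

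Of 24 YAP and TEAD targets 3 were called higher and 0 lower, with medians of 0.37 and 0.22. They were Ankrd1, a cofactor known as a YAP reporter (11.66 against 10.47 and 10.16), the BMP-binding membrane protein Crim1 (9.94 against 8.85 and 8.37) and F3, tissue factor (10.51 against 8.94 and 9.22). On the Mical2 array Ankrd1 read 10.90, Crim1 8.93 and F3 9.73. Ankrd1 and F3 were thus within 1 of the Mical2 array. Yap1 itself stood at 11.05 against 11.12 on both controls, and Wwtr1 at 11.44 against 11.29 and 11.27. Of 53 genes of the actin assembly machinery at the floor 0 were called higher and 2 lower, the actin-bundling supervillin Svil (8.23 against 9.36 and 9.75) and the filopodial motor Myo10 (8.18 against 9.20 and 9.28). Svil lost its call without probe sets open to cross-hybridisation, and Myo10, at −1.02 from the nearer control, with the highest-variance probe set, centring, 16 added or the chromosome median subtracted. With the mean of all probe sets neither was called.

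**Figure D2:**
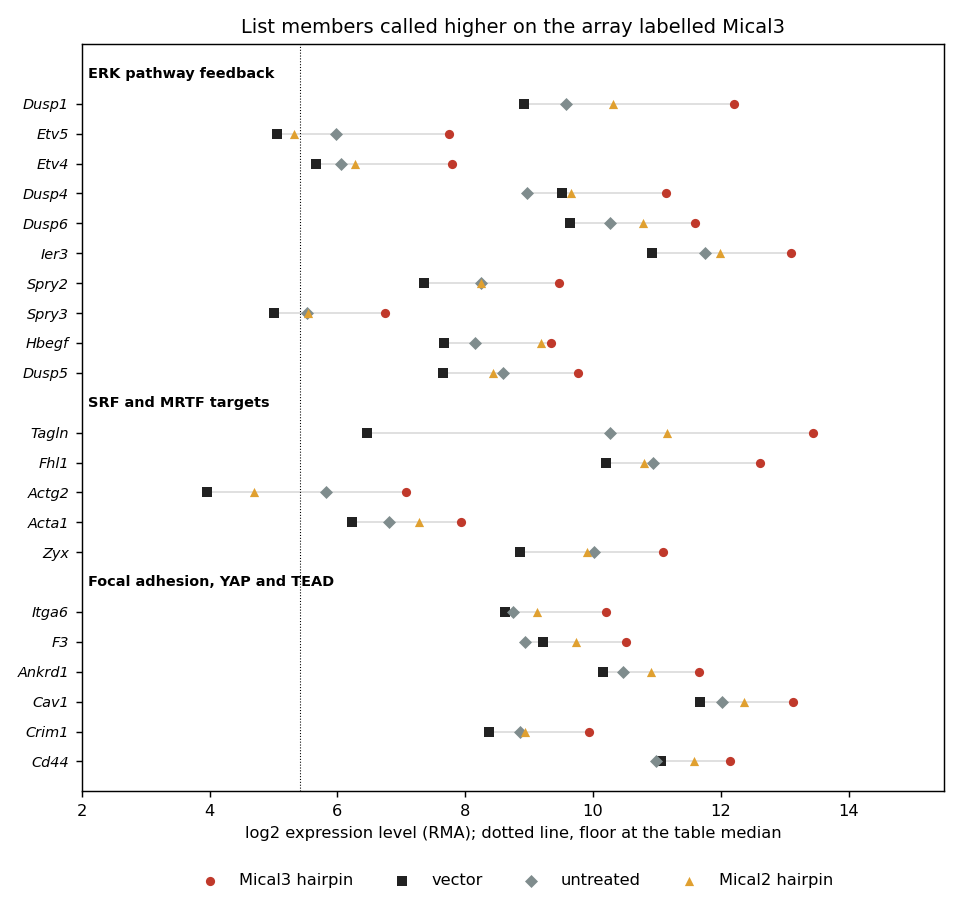
Log2 levels on the 4 arrays (1 symbol an array, 1 array a group) for called members of the ERK feedback, SRF and MRTF, focal adhesion, and YAP and TEAD lists, with the floor of 5.41 dotted. The array labelled Mical3 is the rightmost symbol for every member called higher, and the vector array is the leftmost in most of these, as for Tagln at 13.45 against 6.47. Csrp2, Itgb5 and Itgb8 of these lists were called lower.

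Promoters were read for motifs because several of these lists are defined by a transcription factor. RefSeq promoters of assembly GRCm38.p6 (250 bases before and 50 after each start) matched 350 of the 457 called genes. The SRF motif, the CArG box, was present in 8 of 129 promoters of genes called higher (6.20%), 4 of 221 called lower (1.81%), 1.56% of tested genes not called and 1.81% of all genes in the promoter table. GGAATG, the TEAD motif, was present in 20.9%, 14.9%, 14.2% and 16.6% in the same order, and TGANTCA, the AP-1 motif, in 9.30%, 6.33%, 6.18% and 8.97%. Both strands were searched, and a TGANTCA match may begin on the last letters of a GGAATG match. In the lists themselves a CArG box was found in 9 of 26 SRF and MRTF promoters (34.6%) and 1 of 17 ERK feedback promoters (5.88%), and GGAATG in 12 of 17 YAP and TEAD promoters (70.6%). These matches are descriptions of letters, and Tagln and Actg2 had no entry in the table.

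The windows below show 5 of the 8 genes called higher with a CArG box, with the box in capitals, chosen because they are list members or muscle genes. The other promoters with a box belong to Tpst2, Creld1 and Tigar, which are in none of these lists. Acta1, Fhl1 and Dusp5 belong to the lists above. Myl7, the atrial myosin light chain (9.54 against 8.50 on the untreated array and 5.27 on the vector array), and Nebl, a nebulin family protein of muscle (7.18 against 5.60 on both controls), do not. In the Dusp5 window a further CArG box begins on the base after the one in capitals. The last line shows a GGAATG of Ankrd1.
Acta1, chr8:123894819-123894868, minus strand: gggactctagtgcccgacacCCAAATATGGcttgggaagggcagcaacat
Fhl1, chrX:56779561-56779610, plus strand: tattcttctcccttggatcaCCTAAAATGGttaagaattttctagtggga
Dusp5, chr19:53529043-53529092, plus strand: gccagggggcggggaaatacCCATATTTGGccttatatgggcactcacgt
Myl7, chr11:5898814-5898863, minus strand: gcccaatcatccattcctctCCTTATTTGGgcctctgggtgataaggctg
Nebl, chr2:17462989-17463038, minus strand: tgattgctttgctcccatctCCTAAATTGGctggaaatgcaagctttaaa
Ankrd1, chr19:36120029-36120074, minus strand: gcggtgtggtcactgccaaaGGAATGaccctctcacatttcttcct

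The boxes lay close to the starts, with 63 bases between box and start in Acta1, 92 in Fhl1, 72 in Dusp5, 51 in Myl7 and 152 in Nebl. The GGAATG of Ankrd1 lay 204 bases before the start.

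Of the genes called higher outside these groups, Vat1l had the largest difference from the nearer control. It read 11.25 on the array labelled Mical3, 7.25 on the untreated array, 5.15 on the Mical2 hairpin array and 4.67 on the vector array. Slc39a8, a zinc and manganese importer, read 9.0 against 5.70, 3.43 and 4.31 on the untreated, Mical2 and vector arrays. Satb1, a chromatin organiser, read 9.37 against 7.04, 3.68 and 4.31, and 2 further Satb1 probe sets lay at least 1.36 above both controls. These genes were near the floor on some of the other arrays and well above it on the array labelled Mical3. The proto-oncogene Mycn read 8.80 against 6.34 and 4.16 on the controls but 9.12 on the Mical2 array, so both hairpin arrays were high; the mean of all Mycn probe sets did not keep the call. The neuronal hydrolase Uchl1 read 7.47 against 4.82 and 4.01, and Rtn1, a reticulon of the endoplasmic reticulum, 9.37 against 6.91 and 5.95. Pcsk5, a convertase that cleaves secreted proproteins, read 8.66 against 6.01 and 4.84, and its relative Pcsk6 8.04 against 6.88 and 6.59. On a Pcsk5 probe set not open to cross-hybridisation the nearer difference was 0.10.

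Several secreted proteins were among the genes called higher. Wnt11, a noncanonical Wnt ligand, read 8.80 against 6.55 on the untreated array, 5.69 on the Mical2 array and 5.19 on the vector array. Of the 31 genes of the Wnt list at the floor 1 was called higher, Wnt11, and 1 lower, Rspo3. Outside that list Rspo1, a Wnt agonist of the same family as Rspo3, was called higher at 8.83 against 7.71 and 5.05. Inhbb, a chain of activin and inhibin, read 11.22 against 10.22 on the untreated array and 6.80 on the vector array, exactly at the limit from untreated, and lost its call with a repeated quantile normalization, a loess fit, the mean of all probe sets or 16 added. The natriuretic peptide Nppb read 8.29 against 6.08 and 5.48, and 7.63 on the Mical2 array. Igfbp7, a secreted IGF-binding protein, read 13 against 11.49 and 9.09, and 12.24 on the Mical2 array. For both genes the 2 hairpin arrays were thus within 1 of each other.

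Genes called lower included receptors and ligands of vessel growth. Of 28 angiogenic growth factors and receptors at the floor 6 were called lower (21.4%, against 2.42% over all genes) and 0 higher, while the list's medians, −0.06 and −0.12, were near those of all genes. The change was thus in single members. Pdgfrb, the PDGF receptor of mural and mesenchymal cells, read 3.55 on the array labelled Mical3, 8.13 with the empty vector, 10.28 in untreated cells and 10.71 on the Mical2 hairpin array. A second Pdgfrb probe set read 5.56 against 5.94 and 6.97, 0.38 below vector and 1.41 below untreated. Cxcl12, a chemokine that guides endothelial and blood cells, read 9.32 against 12.46, 12.84 and 13 in the same order. Another Cxcl12 probe set lay 3.69 below vector and 4.17 below untreated.

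The lymphatic growth factors Vegfc and Vegfd and their receptor Flt4 were in this group. Vegfc read 6.64 against 8.32 with the empty vector and 9.16 in untreated cells, and 2 further Vegfc probe sets lay at least 1.18 below both. Vegfd read 6.03 against 8.16 and 8.07, with 2 further probe sets at least 1.89 below both. Flt4, the receptor of both ligands, read 7.55 against 8.90 and 9.18, but 7.66 on the Mical2 array. The ligands were thus low on the array labelled Mical3 only, and the receptor on both hairpin arrays. Fgfr1, an FGF receptor, read 5.03 against 7.18 and 6.62. Vegfa was not called, at 8.97 against 9.04 and 8.34, nor were the receptors Flt1 (7.70, 7.76 and 7.73) and Kdr (5.95, 5.76 and 5.72). Without probe sets open to cross-hybridisation Pdgfrb and Fgfr1 lost their call and 4 of the list were called lower, and with the mean of all probe sets Fgfr1 and Flt4 lost theirs.

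Mesenchymal transcription factors were the next group. Of 32 at the floor 6 were called lower (18.8%) and 1 higher, with medians of 0.01 and −0.26. Twist2, a helix-loop-helix factor of mesenchyme, read 6.09 on the array labelled Mical3, 10.0 with the empty vector, 9.70 in untreated cells and 10.23 on the Mical2 array. The paired homeobox factor Prrx2 read 4.76 against 8.41, 9.22 and 10.31, and its relative Prrx1 5.73 against 7.53, 9.86 and 10.15. For Twist2 and Prrx2 the array labelled Mical3 stood apart from the other 3, whereas for Prrx1 the vector array was itself 2.33 below the untreated array. Snai2 (9.27 against 10.99 and 10.57), Foxf1 (5.91 against 7.73 and 7.82) and Tcf4 (7.24 against 9.13 and 8.76) completed the group. Twist1, at 8.54 against 8.30 and 8.61, Zeb2 and Snai1 were not called, and Gata3 was called higher, at 7.92 against 6.57 and 6.64.

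Fibroblast and pericyte markers overlapped with both lists. Of 14 at the floor 5 were called lower (Pdgfrb, Dpt, Col1a2, Twist2 and Prrx1) and 1 higher (Mcam, 7.90 against 6.84 and 6.04). The medians of the list were −0.10 from vector and −1.69 from untreated. The summed linear level of its 24 measured genes was 27804 on the array labelled Mical3, 29128 with the empty vector, 67854 in untreated cells and 69560 on the Mical2 array, so the sum separated the controls and did not separate the array labelled Mical3 from the vector array. Pdgfra, for instance, read 7.07, 6.16, 10.40 and 9.88 on the Mical3, vector, untreated and Mical2 arrays. Lum, Thy1, Fap, Rgs5, Kcnj8 and Abcc9 were below the floor throughout. What part a change in the mix of cells had in the called genes was not tested.

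Col1a2, the alpha 2 chain of type I collagen, had the largest difference of all called genes. It read 6.19 on the array labelled Mical3, 11.64 on the vector array, 14.06 on the Mical2 hairpin array and 14.49 on the untreated array, 43.7-fold below vector and 315-fold below untreated. A second probe set lay 5.77 and 9.81 below vector and untreated. Another, below the floor on the Mical3 and vector arrays, read 3.94, 3.74 and 6.11. Col1a1, the partner chain of the same fibre, did not follow, at 11.27 against 10.95 with the empty vector and 12.99 in untreated cells, and Col3a1 read 10.79, 10.30 and 13.29. Of 19 collagens at the floor only Col1a2 and Col8a2 (4.14 against 6.79 and 9.73, and 4.60 on the Mical2 array) were called, and both lower.

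Of 42 basement membrane and matricellular genes 4 were called lower and 3 higher. The small proteoglycan Ogn read 6.65 against 9.19 with the empty vector and 10.40 in untreated cells, the thrombospondin Thbs3 6.06 against 8.42 and 7.68, and tenascin Tnc 7.64 against 8.92 and 8.76. Fmod, a proteoglycan that binds collagen, read 4.80 against 5.89 and 10.63, so its call rests on a vector level just above the floor, and it was lost without probe sets open to cross-hybridisation. On the other side were Igfbp7, the basement membrane linker Nid1 (7.06 against 4.49 and 6.06) and the lysyl oxidase Loxl1 (6.69 against 4.88 and 5.48). The mean of all probe sets left 2 lower and 1 higher. Among proteases and inhibitors 3 of 38 were called in each direction, with the stromelysin Mmp3 at 4.60 against 7.44 and 7.03.

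Chemokines of the neutrophil-attracting kind were called lower. Cxcl15 read 3.94 on the array labelled Mical3 and 3.92 on the Mical2 hairpin array, against 11.34 with the empty vector and 8.79 in untreated cells. Cxcl5 read 3.89 and 4.85 against 6.28 and 10.95, and Cxcl1 8.42 and 10.49 against 10.02 and 12.75. For Cxcl15 and Cxcl5 both hairpin arrays were below the floor. For Cxcl5 and Cxcl1 the controls lay further apart than the array labelled Mical3 and the vector array. With Cxcl12 these were 4 of 32 chemokines and cytokines at the floor (12.5%). A further 2 were called higher (6.25%), the TNF family ligand Tnfsf9 (8.75 against 7.74 and 7.72) and the neurotrophic cytokine Clcf1 (8.86 against 7.46 and 7.86), and the medians over all 32 were 0.16 and 0.13. Ccl2 (13.30 against 13.03 and 12.69), Ccl7 and Cxcl10 did not differ by 2-fold. Of 44 interferon response genes 1 was called in each direction, although the list's median lay at −0.93 relative to vector, against 0.06 relative to untreated.

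**Figure D3:**
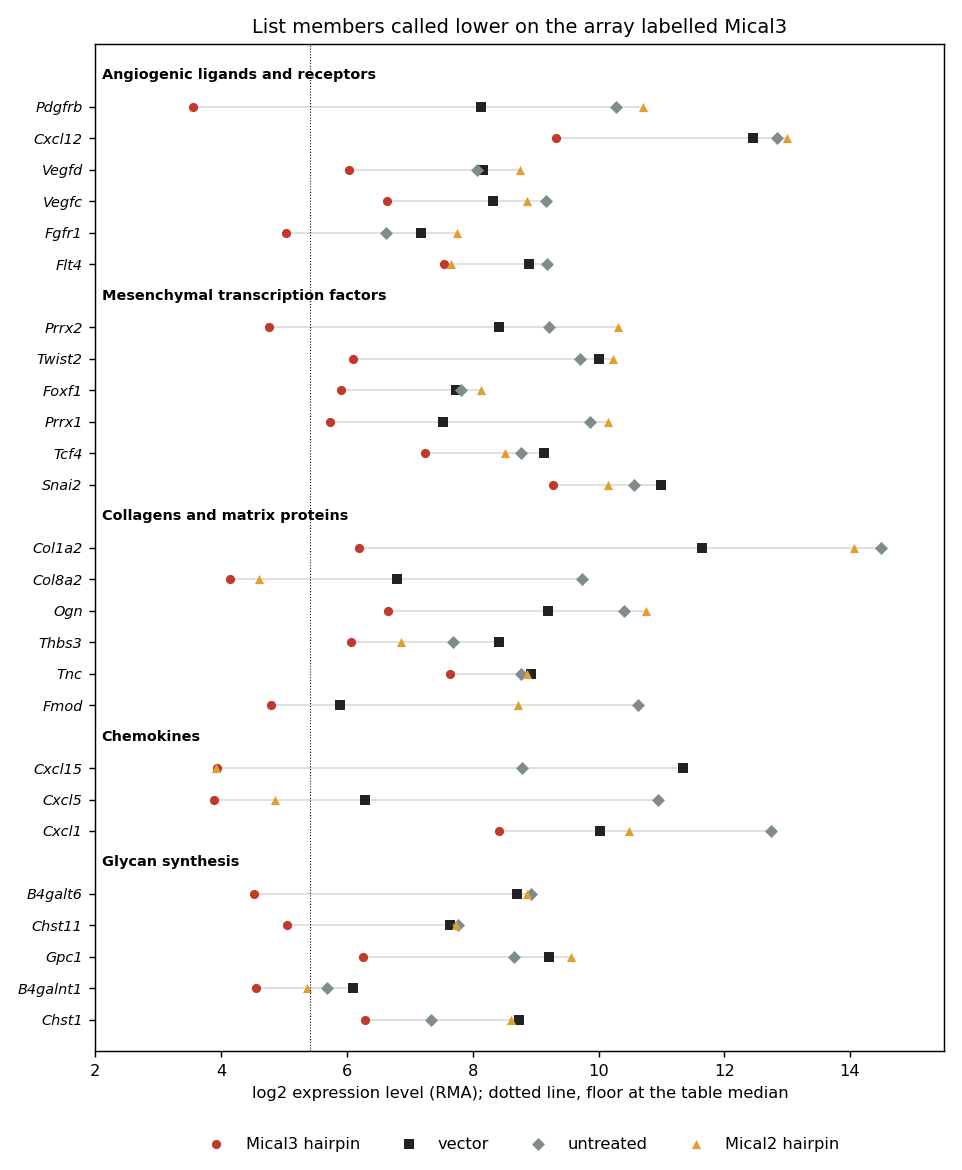
Log2 levels on the 4 arrays (1 symbol an array, 1 array a group) for members called lower, grouped by list, with the floor of 5.41 dotted. The array labelled Mical3 is the leftmost symbol or, for Cxcl15, within 0.02 of it, and Col1a2 spans from 6.19 to 14.49.

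Enzymes that build sugar chains formed a further group, with 5 of 36 called lower (13.9%) and 1 higher. B4galt6, which makes lactosylceramide, the base of most glycolipids, read 4.52 on the array labelled Mical3 against 8.70, 8.92 and 8.87 on the vector, untreated and Mical2 arrays. The 3 other arrays lay within 0.22 of each other. Chst11, a chondroitin sulfotransferase, read 5.04 against 7.64, 7.77 and 7.73, and the heparan sulfate core protein Gpc1 6.25 against 9.22, 8.65 and 9.56. The 3 other arrays were within 0.13 of each other for Chst11 and spread more widely for Gpc1. B4galnt1, a ganglioside synthase, read 4.56 against 6.09, 5.69 and 5.37. Hs3st1, a heparan sulfate sulfotransferase, was called higher, at 8.74 against 6.06 and 7.27, but read 8.77 on the Mical2 array.

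Of 32 solute carriers, channels and metal-binding genes at the floor 5 were called lower (15.6%) and 1 higher, but with probe sets open to cross-hybridisation left out 1 was lower, and with the mean of all probe sets 3. The metal-binding metallothioneins Mt1 (10.67 against 13.48 with the empty vector, 13.12 in untreated cells and 13.76 on the Mical2 array) and Mt2 (9.50 against 12.35, 12.66 and 13.22) were called lower. Slc40a1, the iron exporter ferroportin, which is outside the list, was called lower too, at 5.67 against 8.13, 8.03 and 8.42. On a probe set not open to cross-hybridisation the nearer difference of Mt1 was −0.50. The importer Slc39a8, described above, was the member called higher. The zinc transporters Slc30a1 (9.01 against 9.07 and 9.06) and Slc39a14 (7.57 against 7.48 and 7.80) were level. The channels Cacna1c (4.89 against 6.84 and 6.15) and Ano1 (6.20 against 9.49 and 7.86) were called lower, as was Atp1b1, a sodium pump subunit, at 9.90 against 11.91 and 11.66; another Atp1b1 probe set, the one used when probe sets open to cross-hybridisation were left out, lay 0.30 above the nearer control.

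Of 34 stress response genes 3 were called lower and 1 higher. The transferase Gstm1 read 6.48 against 10.39 with the empty vector and 9.08 in untreated cells, and Gstt1 5.74 against 8.49 and 7.57. Ddit4, an inhibitor of mTOR signalling, read 8.52 against 9.58 and 9.61. Gsta4, which clears lipid aldehydes, was called higher at 11.98 against 10.81 and 10.80. Bnip3, a mitophagy receptor induced by hypoxia, read 5.76 against 10.13, 9.73 and 10.23 on the vector, untreated and Mical2 arrays. It was the only gene of 26 in glycolysis and hypoxia to be called. Cell cycle genes were level, with 1 of 38 called, the inhibitor Cdkn2a (11.97 against 13.22 and 13.02, not called without probe sets open to cross-hybridisation or with chromosome medians subtracted), and 0 of 26 p53 and apoptosis genes were called.

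Guidance genes were called in both directions, with 3 of 38 at the floor lower (7.89%) and 2 higher (5.26%). The semaphorins Sema6d (8.83 against 5.31 with the empty vector and 7.04 in untreated cells) and Sema4a (5.99 against 4.43 and 4.98) were the ones called higher. Ntn1, the axon and vessel guidance cue netrin 1, read 5.09 against 8.66 with the empty vector, 9.78 in untreated cells and 8.66 on the Mical2 array. Dclk1, a microtubule-associated kinase, read 4.05 against 9.93, 9.40 and 9.52, and 3 further Dclk1 probe sets at the floor lay at least 2.85 below both controls. Rspo3 of the Wnt list, which strengthens Wnt signalling and is known in vessel remodelling, read 4.98 against 8.24, 7.88 and 7.65. Ntn1, Dclk1 and Rspo3 were low on the array labelled Mical3 only. Dpysl3, a cytosolic partner of semaphorin signalling, read 7.14 against 8.92, 9.33 and 10.60. Of 29 TGF-beta and BMP genes 2 were called lower and 1, Inhbb, higher. Grem1, a secreted BMP antagonist, read 6.03 against 8.35 and 10.27, and Ltbp1, which holds TGF-beta in the matrix, 6.64 against 8.94 and 9.73. Of 13 Notch pathway genes at the floor 0 were called.

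Imprinted genes, expressed from a single parental copy, had 3 of 20 called lower and 1 higher, and with probe sets open to cross-hybridisation left out 0 lower and 1 higher. Grb10, an adaptor that restrains insulin signalling, read 4.34 against 9.64, 9.67 and 9.98 on the vector, untreated and Mical2 arrays. All Grb10 probe sets are open to cross-hybridisation, and the others lay at most 0.48 below either control, near or under the floor. Plagl1, a zinc finger factor, read 3.94 and 4.29 on the Mical3 and Mical2 arrays against 7.21 and 6.70, and the sarcoglycan Sgce 5.30 and 6.46 against 7.66 and 8.09. Peg3, another zinc finger factor, lay the other way, at 11.81 against 8.03 on the Mical2 array, 10.35 in untreated cells and 7.65 with the empty vector, and lost its call with the mean of all probe sets. The 4 genes thus showed different layouts over the arrays, and on probe sets not open to cross-hybridisation the nearer difference was 0.0 for Plagl1 and −0.13 for Sgce.

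**Figure D4:**
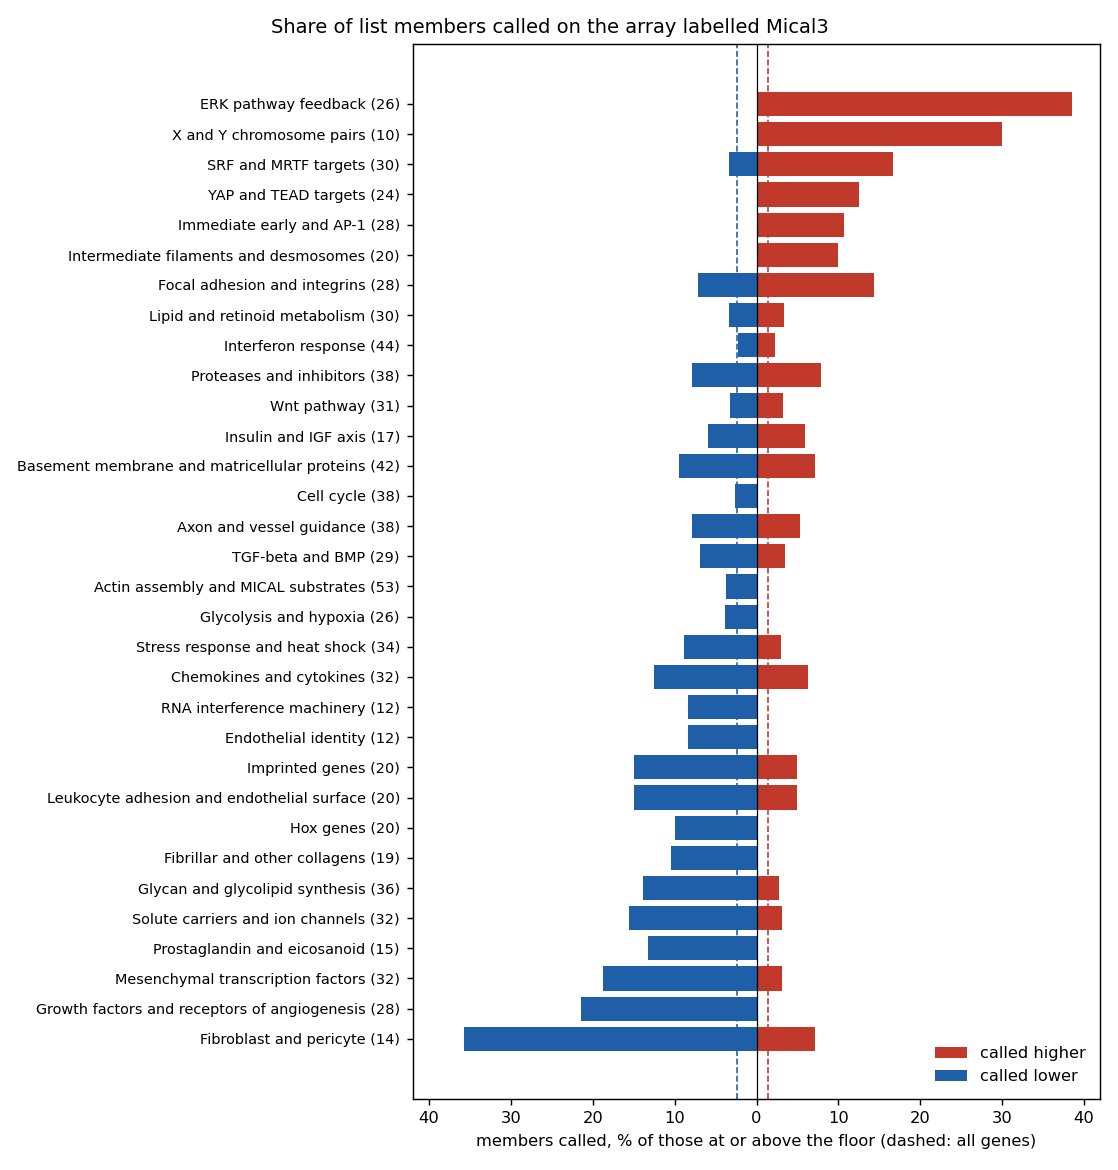
Bars give the shares called higher (right, red) and lower (left, blue) on the array labelled Mical3 for the gene lists shown, each with at least 10 members at the floor and at least 1 call, in percent of the members at or above the floor (their number in brackets), with the shares of all genes, 1.38% and 2.42%, dashed. ERK pathway feedback has the longest bar to the right, 38.5%, and fibroblast and pericyte markers the longest to the left, 35.7%, the latter over 14 genes only.

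Sex-linked genes stood out among the highest differences. The Y genes Eif2s3y (8.75 on the array labelled Mical3 against 6.04, 5.03 and 3.14 on the Mical2, untreated and vector arrays), Uty (7.18 against 4.58, 4.17 and 3.81) and Kdm5d (7.15 against 4.51, 4.18 and 3.54) were called higher. These were 3 of the 4 Y genes tested, the other being Sry at 6.17 against 6.09 and 6.19 on the untreated and vector arrays. The 3 called were below the floor on both controls and counted as tested only through the array labelled Mical3, so this share has no weight. The Y genes Usp9y, Zfy2 and Uba1y were below the floor on all 4 arrays and differed by less than 1 from both controls. All other probe sets of Eif2s3y, Uty and Kdm5d were below the floor. Those of Eif2s3y and Kdm5d differed by at most 0.38 from either control, and 1 of Uty lay 1.61 above vector and 1.42 above untreated. The X partners were not called: Kdm6a (7.66 against 8.18 and 8.47) and Kdm5c (8.71 against 9.07 and 9.13) lay below both controls, and Eif2s3x (11.99 against 11.90 and 11.49) above both. Xist was below the floor on all 4 arrays. Ddx4, a germ cell helicase, read 7.34 against 3.28, 3.47 and 3.29, while Dazl, another germ cell marker, was below the floor on all 4.

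The called genes were spread unevenly over the chromosomes, which were looked at after the values of the called genes were seen. Chromosome 10 held 36 genes called lower and 6 higher among 601 tested (5.99% and 0.998%), and chromosome 1 held 26 and 7 among 658. Chromosome 17 held 17 called higher and 2 lower among 594, and chromosome 19 held 13 and 1 among 441. The shift was not limited to called genes: over all tested genes the median differences from vector and untreated were −0.18 and −0.28 on chromosome 10, −0.19 and −0.21 on chromosome 4, −0.37 and −0.28 on X, 0.19 and 0.21 on chromosome 17 and 0.16 and 0.25 on chromosome 19. On these 5 chromosomes the vector array differed from the untreated array by medians between −0.07 and 0.05. The sign held against both controls in each of 4 equal blocks of the gene order of chromosomes 4, 10, 17, 19 and X. It also held in every block of chromosomes 1 (lower), 13 and 14 (both higher). On X the Mical2 hairpin array also lay below both controls, by medians of −0.32 and −0.27. That array had shifts of like size elsewhere too, with medians from vector and untreated of −0.25 and −0.26 on chromosome 6. On chromosome 18 they were 0.25 and 0.29. Chromosome-wide shifts were thus not particular to the array labelled Mical3. Copy number was not measured in the series, and its part in these shifts was not tested. With the chromosome median subtracted 145 genes were called higher, 129 of them shared, and 272 lower, 248 shared. The ERK list then had 9 of 26 called higher, Dusp5 being lost, while Ankrd1, Crim1, Cav1 and Zyx lost their calls too.

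**Figure D5:**
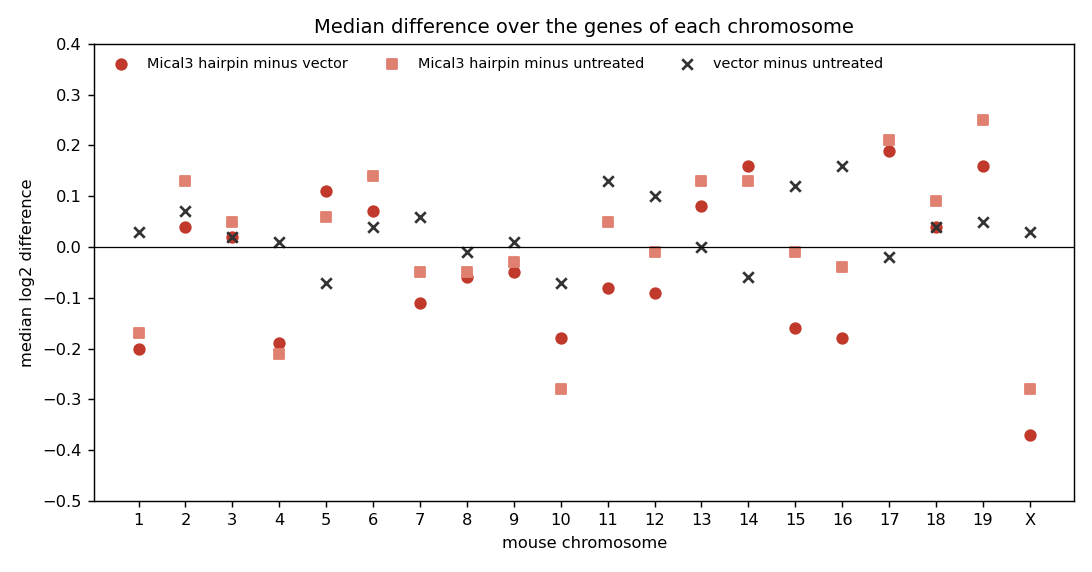
Median log2 difference over the tested genes of each autosome and X (Y, with 4 tested genes, is not drawn) for the array labelled Mical3 against the vector array (circles) and the untreated array (squares), and for the vector against the untreated array (crosses). Chromosomes 17 and 19 lie above 0 and chromosomes 1, 4, 10 and X below 0 against both controls, from −0.37 on X to 0.25 on chromosome 19, while the control comparison stays between −0.07 and 0.16.

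The remaining lists held few calls. Of 20 Hox genes at the floor 2 were called lower, Hoxb13 (6.14 against 7.99 with the empty vector and 8.11 in untreated cells) and Hoxd9 (6.23 against 8.15 and 7.99), and 0 higher. Hoxb13 was lower still on the Mical2 hairpin array, at 5.06. Of 20 leukocyte adhesion and endothelial surface genes 3 were lower, among them Alcam (7.69 against 9.79 and 9.61), and 1 higher, Mcam. Of 15 prostaglandin genes 2 were lower, including the inducible cyclooxygenase Ptgs2 (5.72 against 7.82 and 9.15). Lipid and retinoid genes had 1 of 30 in each direction, with the retinal dehydrogenase Aldh1a1 higher (13.36 against 9.57 and 11.88), and the insulin and IGF list 1 of 17 in each, Igfbp7 and Grb10. Of 20 intermediate filament genes 2 were higher, Tubb2b and the keratin Krt18 (7.41 against 4.84 and 5.85). Of 12 genes of the RNA interference machinery 1 was lower, Tnrc6b (7.88 against 9.03 and 8.92).

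Among cell type markers, Krt18 was the 1 of 8 epithelial genes called, and the summed linear level of that list was 1328 on the array labelled Mical3, 1045 on the untreated array, 607 on the vector array and 1198 on the Mical2 array, with Cdh1 below the floor on all 4. Of 9 leukocyte and 5 neural markers at the floor 0 were called. Endothelial identity had 1 of 12 lower, the ETS factor Fli1 (3.59 against 5.78 and 5.71), and lymphatic markers 1 of 6 in each direction, Mmrn1 (6.56 against 4.47 and 4.82) and Flt4. Mmrn1 read 6.67 on the Mical2 array, so both hairpin arrays were high.

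Other probe sets of the called genes gave a further reading of the same RNA on the same arrays. They were counted where the highest of the 3 arrays compared reached the floor. For genes called higher, a probe set could thus enter through the array labelled Mical3 alone. The matching shares over genes not called are not given here. Of the genes called higher, 89 had another probe set and 56 had another at the floor. In 52 of these 56 all others lay above both controls. In 19 all others passed the 2-fold rule too. Of the genes called lower, 186 had another probe set and 136 had another at the floor. In these 136, all others lay below both controls in 118 and all passed the rule in 37. In 3 and 9 genes none of the other probe sets lay in the called direction. Runx3, for instance, read 4.58 against 7.99 and 8.76 on the chosen probe set and 6.07, 6.07 and 6.01 on another.

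The limits of the rule can be read from the genes nearest to it. Clcf1, Cobll1 and Ifit1bl1 were just inside among the genes called higher, each at 1.0 from the nearer control, and Cgn and Katnbl1 were just outside at 0.99. Atxn7l1 and Chst7 were just inside among those called lower, at −1.0, and Ids and Lcn2 just outside at −0.99.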

How the data were processed

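Total RNA from SVEC4-10 cells, pooled from 3 biological replicates a group per the labels, was hybridised as biotin-labelled cRNA to 4 arrays. The authors deposited log2 expression levels; the submitters' processing notes name RMA, a method whose usual steps are background correction, quantile normalization and probe summary. The sources used here give no version or settings for it. Of 45101 probe sets, 64 were controls, 34945 had 1 gene symbol, 932 several and 9160 none, and those with 1 symbol were used. Symbols were updated through Entrez identifiers to a RefSeq table of GRCm38.p6 (34741 matched, 204 kept as annotated). The probe set with the highest mean of 4 arrays stood for a gene.

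With 1 array a group, genes were called by size alone: at least 1 (log2) from both controls in the same direction, the higher level of each pair at or above 5.41. The array labelled Mical3 had a median of 5.40, the others 5.41 to 5.44. On simulated data the calling rule was checked too. The members and the 41 gene lists were chosen with earlier results of these data known, and list counts are descriptions; 1 list is not reported here. Named were the first 30 called genes in each direction by the nearer difference, predicted genes skipped, called list members, up to 4 other members a list, MICAL genes and cell type markers, though not all are printed; Myl7, Nebl, Slc40a1, Rspo1, Tpst2, Creld1, Tigar, the genes nearest the threshold and list members given as not differing were chosen after their values were seen. Alternatives were single controls or their mean, folds of 1.5 and 3, floors, other probe set rules, repeated quantile normalization, centring, loess and 16 added before log2. Software was Python 3.11.15 with matplotlib 3.10.9, numpy 2.4.6, statsmodels 0.14.6 and pandas 2.3.3.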

Additional observations from a re-analysis of the deposited data

How the results depend on the processing

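The counts depended mostly on the control and the fold. Against vector alone 553 genes were called higher and 849 lower, against untreated alone 440 lower, and with the mean of both controls 325 and 537, since these rules ask for less. A fold of 1.5 gave 539 and 761, and a fold of 3 gave 42 and 121. A floor at the 75th percentile, 8.01, gave 150 lower, and the mean of all probe sets of a gene 184 lower; the cause of the latter was not tested. The other alternatives stayed within 1.5 times of 166 and 291. Of 153 named called genes, 43 were called under all 16 alternatives, and 1 changed its side, Atp1b1, at 0.30 with probe sets open to cross-hybridisation left out. Subtracting chromosome medians, and a floor on the highest of the 3 arrays (166 higher and 299 lower), were chosen after seeing the data. No paired analysis was possible because each group had 1 array. Signal limited both directions: 19 genes called higher were below the floor on both controls, and 83 called lower were below it on the array labelled Mical3, so the size of those differences rests on levels near background.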
